A study of Arabidopsis thaliana with 11 samples.

Results

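The proline metabolism genes of Arabidopsis thaliana described here are P5CS1 (AT2G39800), P5CS2 (AT3G55610), P5CR (AT5G14800), PRODH1 (AT3G30775, named ERD5 in the annotation) and PRODH2 (AT5G38710), 5 of 27444 annotated nuclear protein-coding genes. They were chosen by score, through P5CS1, and the other 4 genes encode enzymes of the same step or of neighbouring ones. The promoter region of P5CS1 stood among the 10 highest ranked regions of genes with a symbol in the ACD15 and ACD21 lists. The values of P5CS1 in those lists are therefore a description and carry no test. Each locus was taken from 2 kb upstream of the gene start to 1 kb past its end, and every called region that touched this window was counted.

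The study mapped proteins of a methyl-CG reader complex by chromatin immunoprecipitation followed by sequencing in inflorescences of ecotype Col0. The labels give 11 libraries. ACD15.5-3XFLAG and ACD21.4-3XFLAG plants, each a tagged transgene in the wild-type genotype, had 2 libraries each. MBD6-RFP had 2 libraries in acd15 acd21 plants, in which both ACD genes are mutant, and 2 in wild-type plants. Control plants without a transgene gave 1 FLAG and 2 RFP libraries, whose peaks are not analysed here and give no background value. No label gives the promoters that drive the transgenes, the numbers of independent lines or the age of the plants, and peak lists hold no expression by which the tissue could be checked. A further source of regions was a list merged from broad peaks of MBD5 and MBD6, to which no library of this series contributed. Whether 2 replicates are 2 plant samples or 1 is not labelled, and the spread between them may be technical.

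Plants make proline from glutamate. P5CS enzymes form pyrroline-5-carboxylate, the step that limits the rate, and P5CR reduces it to proline. PRODH enzymes in mitochondria start the way back by oxidising proline. Proline accumulates under drought and salt stress, when P5CS1 is induced and PRODH1 is repressed, and it is abundant in flowers. MBD5 and MBD6 bind methylated CG dinucleotides, and the alpha-crystallin domain proteins ACD15 and ACD21 join them in 1 complex.

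The called regions lay on sequences that differed widely in CG content. Shown here are the 251 bases around the summit in ACD15-FLAG replicate 2, the library list with most regions, for the 3 genes with a region in it, and the stretch upstream of P5CR at the distance of the P5CS1 summit, where no list had a region. All are read 5′ to 3′ on the minus strand, the strand of each gene, in TAIR10 coordinates from the RefSeq copy of TAIR10.1, and capitals mark each CG. The intervals are chr2:16603541-16603791 for P5CS1, chr3:20629757-20630007 for P5CS2, chr5:4788218-4788468 for P5CR and chr3:12452883-12453133 for PRODH1, and all 4 lie upstream of the annotated gene.
P5CS1: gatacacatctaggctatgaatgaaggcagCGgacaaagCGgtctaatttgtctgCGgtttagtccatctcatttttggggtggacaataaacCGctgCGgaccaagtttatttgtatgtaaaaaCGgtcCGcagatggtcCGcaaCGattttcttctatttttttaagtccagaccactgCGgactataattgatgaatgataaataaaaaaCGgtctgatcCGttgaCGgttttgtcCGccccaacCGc
P5CS2: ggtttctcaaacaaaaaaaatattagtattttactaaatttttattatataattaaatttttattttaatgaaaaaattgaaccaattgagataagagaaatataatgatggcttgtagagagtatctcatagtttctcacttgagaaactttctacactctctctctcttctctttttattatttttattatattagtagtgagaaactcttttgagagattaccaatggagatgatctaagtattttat
P5CR: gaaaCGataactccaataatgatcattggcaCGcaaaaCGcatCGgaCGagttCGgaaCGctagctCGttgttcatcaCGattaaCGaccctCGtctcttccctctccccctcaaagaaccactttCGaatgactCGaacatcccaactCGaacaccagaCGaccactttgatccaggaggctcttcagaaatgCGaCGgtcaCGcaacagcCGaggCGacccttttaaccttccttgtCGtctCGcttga
PRODH1: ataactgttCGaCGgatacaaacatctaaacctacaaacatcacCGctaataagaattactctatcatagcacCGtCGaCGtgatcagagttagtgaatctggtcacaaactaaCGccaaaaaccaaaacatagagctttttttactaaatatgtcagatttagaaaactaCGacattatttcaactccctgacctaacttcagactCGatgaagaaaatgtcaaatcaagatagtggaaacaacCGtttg
P5CS1 held 15 CG in these 251 bases, P5CS2 held 0, P5CR 22 and PRODH1 10. The median was 8 CG at the 10946 summits of ACD15-FLAG replicate 2 and 4 in windows of this length centred 347 bp upstream of all 27444 genes. A summit window without any CG, as upstream of P5CS2, occurred at 57 of the 10946 summits, or 0.521%, and upstream of 4.55% of all genes. The P5CS2 window was also low in G and C (23.5% of bases, against a median of 35.5% at the summits), whereas that of P5CS1 had 43.8%. The window upstream of P5CR stood at the 99.8th percentile of CG count upstream of genes although no list had a region there. DNA methylation was not measured in these libraries, so the counts give CG dinucleotides and not methylated ones.

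**Figure D1:**
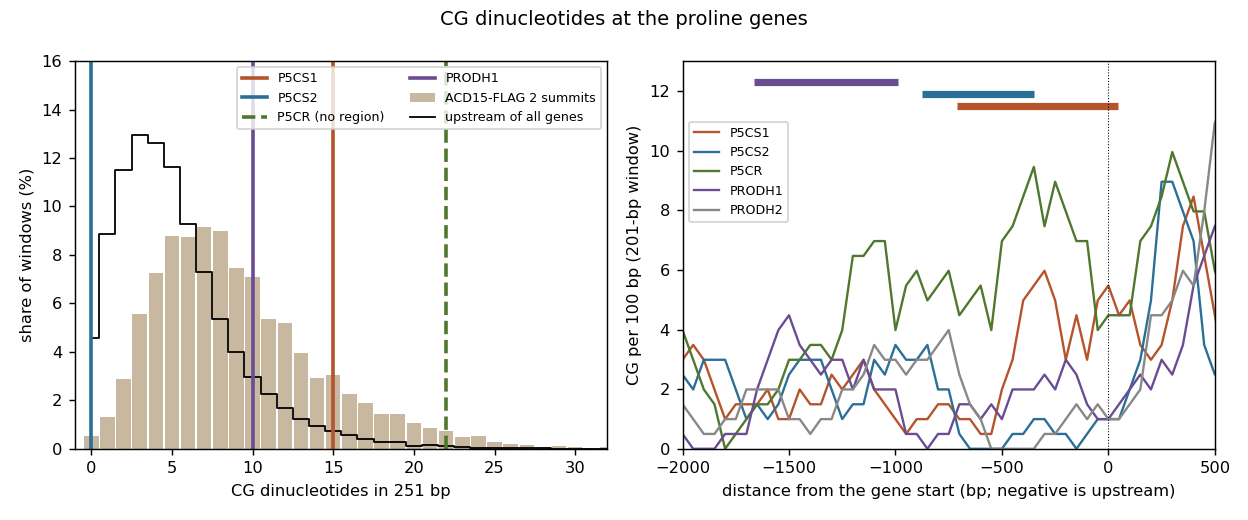
Left, the share of 251-bp windows (y axis, percent) by the number of CG dinucleotides (x axis) at ACD15-FLAG replicate 2 summits (bars) and upstream of all genes (line), with vertical lines at P5CS1 (15), P5CS2 (0), P5CR (22, dashed, no region called) and PRODH1 (10). Right, CG per 100 bp in 201-bp windows along each gene (y axis) by distance from its start (x axis, bp), with bars at the top for the ACD15-FLAG replicate 2 regions of P5CS1, P5CS2 and PRODH1.

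Among the genes of proline synthesis, P5CS1 carried by far the highest fold enrichments. Fold enrichment here is the authors' own value for each region from their peak caller, and it ranks regions within a list but does not measure a change between lists. P5CS1 lies at chr2:16598072-16603319 on the minus strand. In ACD15-FLAG its upstream region had a fold enrichment of 7.48 in replicate 1 and 10.3 in replicate 2, a mean of 8.90 ± 2.00 (SD, n = 2). In ACD21-FLAG it had 8.93 in replicate 1 and 7.17 in replicate 2, a mean of 8.05 ± 1.25 (SD, n = 2). The 2 groups overlapped, with the ACD21-FLAG replicate 1 value between the ACD15 values and the replicate 2 value below both. The median over all regions of these 4 lists was 2.36 to 2.73, so the P5CS1 region exceeded it in each.

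Ranked by the score of the list, which is 10 times the -log10 q value, the P5CS1 region stood 26th of 5661 regions in ACD15-FLAG replicate 1 and 6th of 10946 in replicate 2. In ACD21-FLAG it stood 85th of 6774 in replicate 1 and 41st of 3571 in replicate 2. Of all protein-coding genes, 1534 had a region from 1 kb upstream to 200 bp downstream of the start in all 4 FLAG lists, and 543 of these carry a symbol. P5CS1, with a mean percentile of the score of 99.288 over the 4 lists, was number 10 among those with a symbol and number 24 among all. Among genes with a symbol, the one just above it was COL3 at 99.295, with folds of 6.87 to 9.10, and just below stood Tudor2 at 99.228, with folds of 6.25 to 9.68.

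The place of the region was nearly fixed between libraries. The 4 FLAG summits lay 337 to 347 bp upstream of the gene start, within 10 bp of each other. The regions ran over chr2:16603310-16603973 and chr2:16603273-16604028 in ACD15-FLAG and over chr2:16603321-16603990 and chr2:16603376-16603930 in ACD21-FLAG. Every summit was intergenic in the annotation, and both ACD15-FLAG regions ran on past the gene start, to 9 and 46 bp downstream of it. P5CS1 has 4 annotated mRNAs, of which 3 start up to 260 bp further downstream, so for those the ACD15-FLAG replicate 2 summit lies 605 or 607 bp upstream.

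MBD6-RFP, whose lists had no part in choosing the gene, also had regions there. In acd15 acd21 plants the upstream region was called in replicate 1, with a fold of 6.85 and a summit 299 bp upstream, and not in replicate 2. In wild-type plants it was called in both replicates, with folds of 11.4 and 6.65 and summits 373 and 336 bp upstream, a mean of 9.05 ± 3.39 (SD, n = 2). The region was missing from, or by score stood far down, the 2 shortest lists. Replicate 2 of acd15 acd21 held 404 regions in all and replicate 2 of wild type held 1244, against 3987 in acd15 acd21 replicate 1 and 3492 in wild type replicate 1. Whether the missing call in acd15 acd21 replicate 2 came with the shorter list was not tested. By score the region ranked 141st of 3987 in acd15 acd21 replicate 1, 149th of 3492 in wild type replicate 1 and 983rd of 1244 in wild type replicate 2. In wild type replicate 2 its percentile was 21.1 by score and 81.9 by fold. All FLAG libraries belong to batch 1 and all RFP libraries to batch 2, so the tagged protein and the batch cannot be told apart, and the antibody label reads FLAG for both although the titles of batch 2 name RFP.

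The 7 library regions and the regions of the 3 merged lists shared 256 bp, at chr2:16603525-16603780, which hold 15 CG. These bounds are those of the MBD6-RFP wild type replicate 2 region. Together all these regions spanned 1125 bp, and all summits fell within 74 bp. The region of the MBD5/MBD6 list, chr2:16603107-16604034, came from both MBD5 and MBD6. P5CS1 thus had an upstream region in 10 of 11 lists. The FLAG lists among them chose the gene, and the ACD15 and ACD21 merged lists were drawn from those, so this tally is a description only. A separate region of acd15 acd21 replicate 1, with a fold of 4.03, touched the far end of the P5CS1 window. Its summit lay 950 bp past the end of P5CS1 in a coding exon of AT2G39795, annotated as a mitochondrial glycoprotein family protein, whose 3′ end overlaps that of P5CS1 by 91 bp. No other list had a region there.

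**Figure D2:**
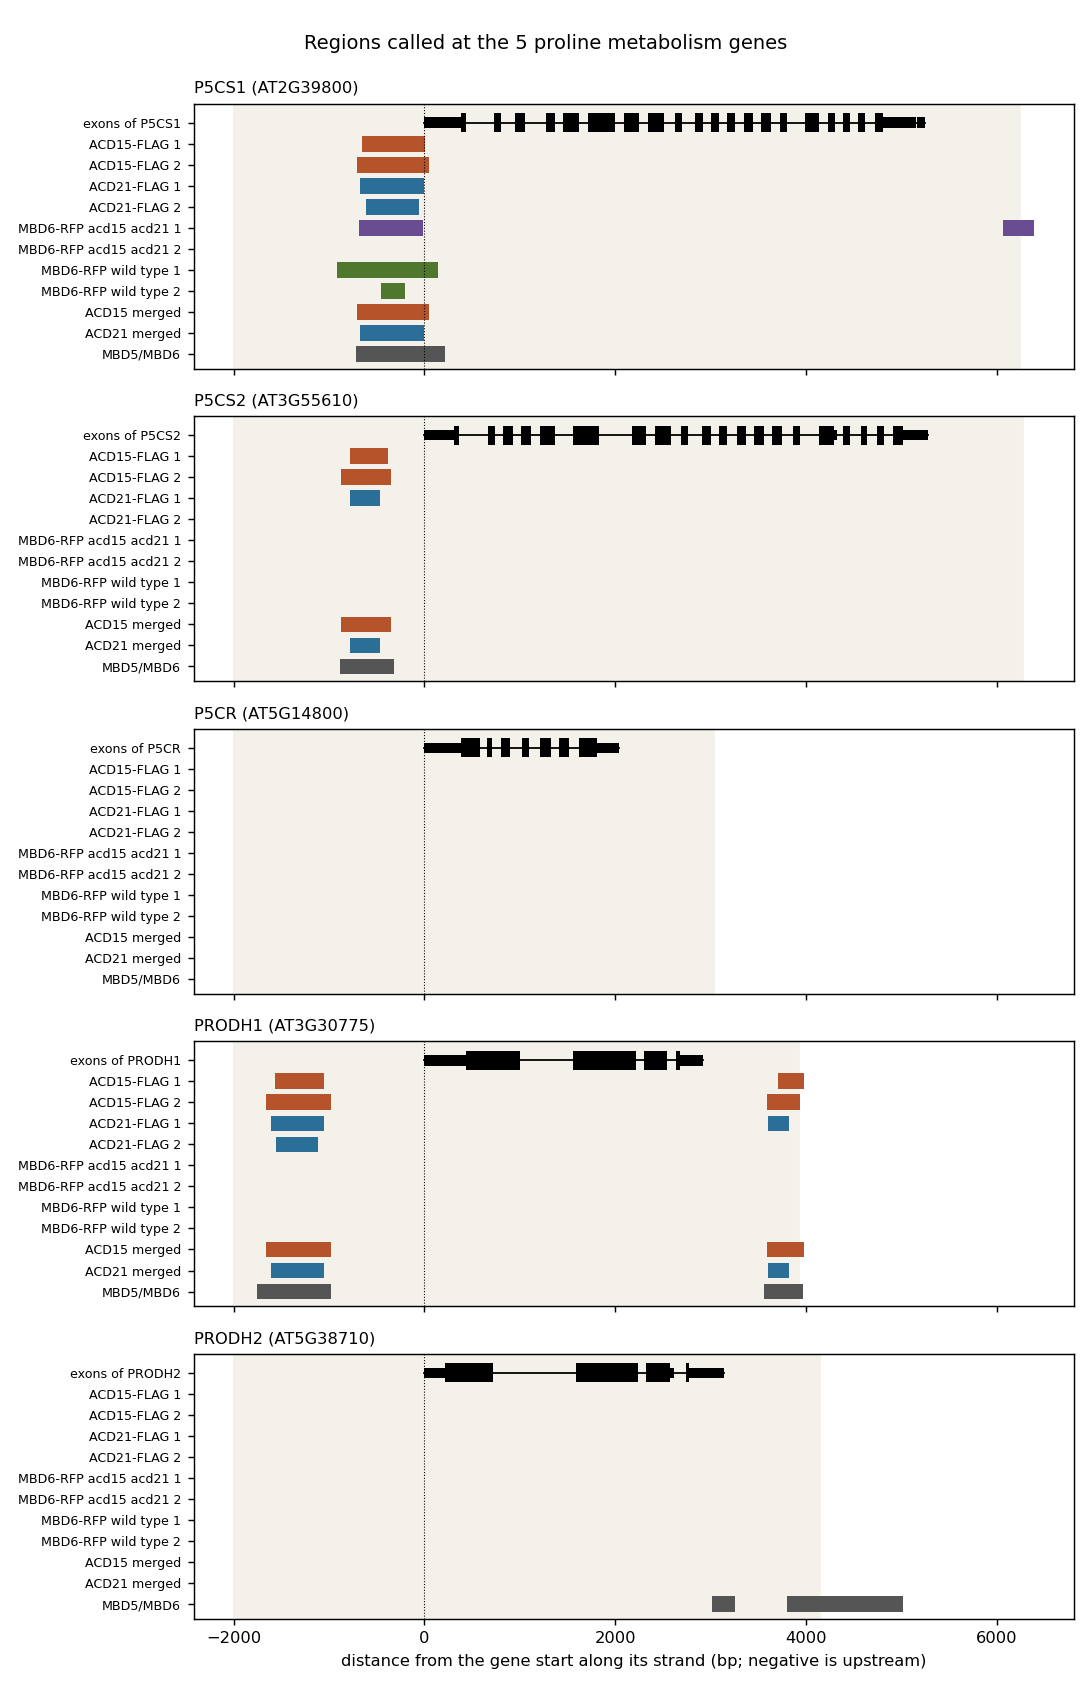
Each panel shows the exons of 1 gene (top row, coding parts taller) and the regions of the 8 library lists and 3 merged lists (rows, coloured by group) by distance from the gene start along its strand (x axis, bp), with the window searched shaded. Regions at P5CS1 stack around the FLAG summits 337 to 347 bp upstream, those at PRODH1 lie further upstream (summits 1378 to 1498 bp) and past the gene end, and P5CR has none.

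P5CS2, the second P5CS gene, encodes the housekeeping form of the enzyme. It lies at chr3:20624020-20629295 on the minus strand. Its upstream region had a fold of 2.52 in ACD15-FLAG replicate 1 and 3.17 in replicate 2, a mean of 2.84 ± 0.456 (SD, n = 2). In ACD21-FLAG it had 1.54 in replicate 1 and was not called in replicate 2. The ACD21 value was near the floor of its list, where it ranked 6764th of 6774 regions with a -log10 q of 2.01. No MBD6-RFP list had a region at P5CS2, in acd15 acd21 or in wild type. The summits lay 519 to 587 bp upstream, and the region in the MBD5/MBD6 list, chr3:20629617-20630178, came from both MBD5 and MBD6. The stretch common to all these regions, 311 bp at chr3:20629762-20630072, holds 0 CG. Its bounds are those of the ACD21-FLAG replicate 1 region, the call near the floor. The whole region held 0 CG in ACD15-FLAG replicate 1, and 5 in ACD15-FLAG replicate 2 and in the MBD5/MBD6 list. AT3G55605, another mitochondrial glycoprotein family gene, overlaps the 3′ end of P5CS2 by 32 bp and had no region inside the window.

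P5CR, the enzyme of the last step, lies at chr5:4785960-4787996 on the minus strand and had no region in any of the 11 lists. The nearest region of the merged lists was 3405 bp outside the window for ACD15, 4487 bp for ACD21 and 3226 bp for MBD5/MBD6. AT5G14790, an ARM repeat protein gene, and the pseudogene AT5G14810 reach into the P5CR window. A missing region is one that was not called, and read depth, which bears on calling, is unknown from peak lists.

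Of the genes of proline breakdown, PRODH1 had regions in the ACD15 and ACD21 lists and PRODH2 had none there. PRODH1 lies at chr3:12448636-12451556 on the minus strand. Its upstream region had folds of 2.21 and 3.92 in the ACD15-FLAG replicates, a mean of 3.06 ± 1.21 (SD, n = 2). In the ACD21-FLAG replicates the folds were 2.09 and 1.72, a mean of 1.90 ± 0.258 (SD, n = 2). The ACD21-FLAG replicate 2 value was near the floor of its list, where it ranked 3417th of 3571 regions with a -log10 q of 3.50. The ACD15 values were above both ACD21 values, but the lists were scaled separately and no test was run. Only the ACD15-FLAG replicate 2 value exceeded the median of its list. The region was called in all 4 FLAG lists. Of all genes, 11.7% had some region in the window, upstream or not, in each of these 4 lists.

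The PRODH1 summits lay much further out than those of the P5CS genes, 1378 to 1498 bp upstream, and both ACD21 lists gave a second summit, 1157 bp upstream in replicate 1 and 1204 bp in replicate 2. The stretch common to all upstream regions, 444 bp at chr3:12452674-12453117, holds 13 CG. Its bounds are those of the ACD21-FLAG replicate 2 region, whose value was near the floor of its list. A second region lay past the 3′ end of PRODH1, in AT3G30770, an aspartyl protease family gene. It had folds of 1.52 and 2.41 in ACD15-FLAG and 1.93 in ACD21-FLAG replicate 1, and was not called in ACD21-FLAG replicate 2. The value of 1.52 was near the floor of its list, at rank 5574 of 5661 with a -log10 q of 2.14. Its summit lay 1061 bp past the gene end, outside the window. In the MBD5/MBD6 list the upstream region came from both proteins and the one in AT3G30770 from MBD5 alone. No MBD6-RFP list had a region at PRODH1.

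PRODH2, at chr5:15501126-15504269 on the plus strand, is annotated in RefSeq as a methylenetetrahydrofolate reductase family protein. Regions touched its window in the MBD5/MBD6 list alone. One, chr5:15504140-15504383, covers the 3′ end of the gene, came from MBD6 only and holds 0 CG. The other, chr5:15504928-15506146, is intergenic beyond the gene, came from both proteins and holds 21 CG. The nearest ACD15 and ACD21 merged regions lay 367 and 448 bp outside the window, on the upstream side.

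**Figure D3:**
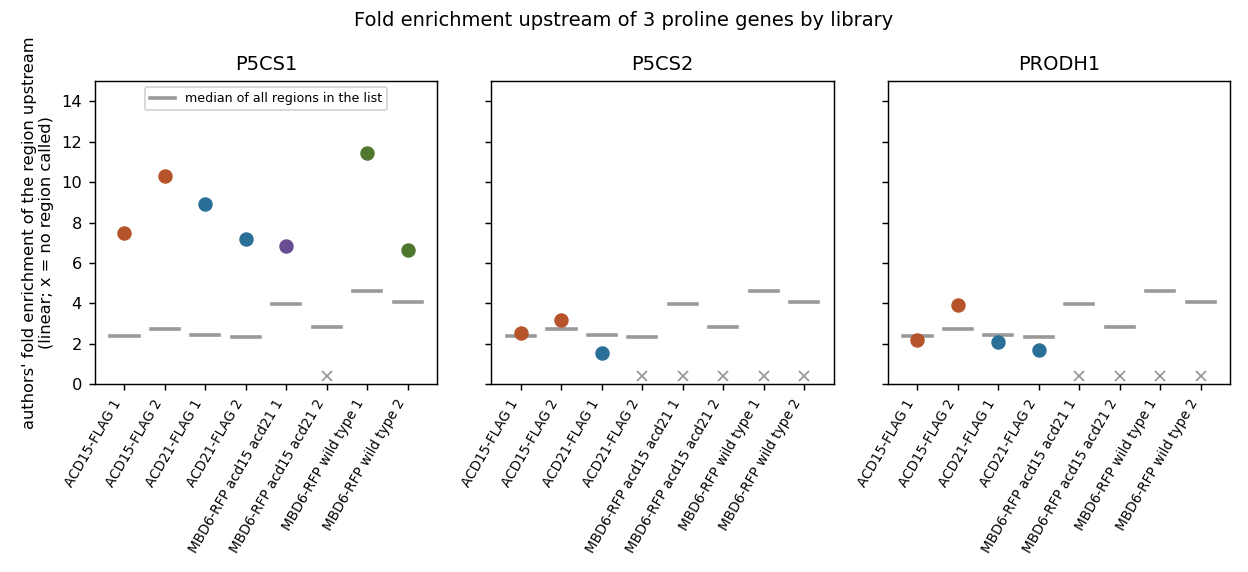
Fold enrichment given by the authors (y axis, linear) for the upstream region of P5CS1, P5CS2 and PRODH1 in each of 8 libraries (x axis), with crosses at 0.4 where no region was called and grey bars at the median of all regions in that list. P5CS1 was above the median in the 7 libraries in which it was called, and P5CS2 and PRODH1 lay near or below it apart from their ACD15-FLAG replicate 2 values.

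Counted over the lists, 3 members had a region in ACD15-FLAG replicate 1, where 19.3% of all protein-coding genes had one in the same kind of window, and 3 in replicate 2 (29.8% of all genes). In ACD21-FLAG replicate 1 there were 3 (20.8%) and in replicate 2 there were 2 (12.4%). In MBD6-RFP acd15 acd21, 1 member had a region in replicate 1 (13.6%) and 0 in replicate 2 (0.791%), and in MBD6-RFP wild type 1 member had one in replicate 1 (9.67%) and 1 in replicate 2 (2.19%). The merged lists held 3 members for ACD15 (30.3%), 3 for ACD21 (20.8%) and 4 for MBD5/MBD6 (37.6%). A region in both replicates was called for 3 members in ACD15-FLAG (18.9%), 2 in ACD21-FLAG (12.3%), 0 in MBD6-RFP acd15 acd21 (0.138%) and 1 in MBD6-RFP wild type (0.689%). The FLAG counts include P5CS1, which those lists chose, so nothing is read from them. The mean number of members with an MBD6-RFP region was 0.5 ± 0.707 in acd15 acd21 and 1 ± 0 in wild type (SD, n = 2 each). The difference of -0.5 had p = 1 in a two-sided exact permutation test over libraries. In general 2 against 2 libraries cannot go below 0.33 in that test. With counts of 1 and 0 against 1 and 1, every split of the libraries gives a difference of the same size. The test could therefore give no other p-value, and nothing is read from it. Each count of 1 is P5CS1.

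The sequence under the P5CS1 region was not unique in the genome. A search of the nuclear genome with the ACD15-FLAG replicate 2 region found 47 further copies of part of it, with matches of at least 100 bp and identities of 68.1% to 92.2% (median 75%). The matches fell between 178 and 469 bp upstream of P5CS1, around the stretch common to all upstream regions called there. Shown for comparison are the copy with the highest identity, 588 bp upstream of ATDOF4.2 (AT4G21030) at chr4:11230700-11230953, and the copy 511 bp upstream of COL4 (AT5G24930) at chr5:8588815-8589077. Both are read on the minus strand, the orientation of the P5CS1 window given above, and capitals mark CG. Both were singled out after the copies had been found.
copy near ATDOF4.2: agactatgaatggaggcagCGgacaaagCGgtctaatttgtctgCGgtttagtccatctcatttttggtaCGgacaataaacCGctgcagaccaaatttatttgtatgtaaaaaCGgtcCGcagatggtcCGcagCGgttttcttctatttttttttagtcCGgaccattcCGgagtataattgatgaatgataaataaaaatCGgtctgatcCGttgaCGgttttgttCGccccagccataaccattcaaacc
copy near COL4: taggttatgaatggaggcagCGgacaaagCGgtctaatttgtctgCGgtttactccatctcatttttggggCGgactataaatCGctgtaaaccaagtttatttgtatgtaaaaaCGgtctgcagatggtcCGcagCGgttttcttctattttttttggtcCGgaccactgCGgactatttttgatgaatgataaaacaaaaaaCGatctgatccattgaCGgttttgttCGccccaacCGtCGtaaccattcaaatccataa
Each of these copies holds 15 CG, as did the P5CS1 window. The copy near ATDOF4.2 had folds of 6.32 and 9.69 in ACD15-FLAG and 8.44 and 6.32 in ACD21-FLAG. The copy near COL4 had 7.57 and 10.2 in ACD15-FLAG and 8.98 and 7.15 in ACD21-FLAG, close to the 7.48 and 10.3 and the 8.93 and 7.17 at P5CS1.

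Nearly all copies had a region in the ACD15 and ACD21 lists. Of 47 copies, 46 touched a region of the ACD15 merged list (97.9%), 46 the ACD21 merged list (97.9%) and 45 the MBD5/MBD6 list (95.7%), while these lists cover 5.41%, 2.66% and 10.5% of the nuclear genome. By library the counts were 46 and 46 for ACD15-FLAG, whose lists cover 2.17% and 5.35% of the genome, and 46 and 44 for ACD21-FLAG, which cover 2.64% and 1.27%. In MBD6-RFP they were 13 and 0 in acd15 acd21 plants and 26 and 0 in wild-type plants, in lists that cover 1.61% and 0.111% for acd15 acd21 and 2.21% and 0.455% for wild type. Covered bases are not the chance that a copy touches a region by 1 bp. P5CS1 was the one place of this family with a region in wild type replicate 2. The fold at P5CS1 was exceeded by 3 copies in ACD15-FLAG replicate 1 and by none in replicate 2, and by 3 copies in ACD21-FLAG replicate 1 and 1 in replicate 2. Since the FLAG lists chose P5CS1, nothing is read from its standing there. In MBD6-RFP replicate 1, 6 of 13 called copies exceeded P5CS1 in acd15 acd21 and 10 of 26 in wild type. The copies held 3 to 18 CG (median 12). Of the 47, 42 were intergenic and 29 lay within 2 kb upstream of a gene.

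A hexamer recurred within this sequence. GCGGAC, or its reverse complement GTCCGC, occurred 6 times in the P5CS1 window, counted on both strands, and 36 of the 47 copies held it, with a median of 2 and a highest count of 6. At the ACD15-FLAG replicate 2 summits 4.59% of windows held this hexamer and 0.0183% held it at least as many times as P5CS1. It was picked as the most frequent hexamer with a CG in this window, and a match is a description of the sequence only. The same count gave CGTCGA 3 times for PRODH1 (5.06% of summit windows hold it) and AGACGA 3 times for P5CR (9.49%).

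The P5CS2 sequence was repeated as well, with no likeness in CG content to the P5CS1 family. Its ACD15-FLAG replicate 2 region had 60 copies of at least 100 bp elsewhere, with identities of 69.0% to 90.9% (median 77.8%). The copy with the highest identity, chosen after the search, lies 336 bp upstream of BGLU6 (AT1G60270) at chr1:22224560-22224829 and is shown on the plus strand, in the orientation of the P5CS2 window.
copy near BGLU6: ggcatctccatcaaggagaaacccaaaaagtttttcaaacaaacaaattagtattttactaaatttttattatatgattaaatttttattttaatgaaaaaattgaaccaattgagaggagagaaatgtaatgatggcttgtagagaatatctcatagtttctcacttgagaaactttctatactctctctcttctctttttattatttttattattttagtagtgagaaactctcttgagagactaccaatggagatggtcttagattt
It holds 0 CG and had folds of 1.98 and 3.54 in ACD15-FLAG, with no region in either ACD21-FLAG replicate. Among the 60 copies, 45 touched the ACD15 merged list (75%), 14 the ACD21 merged list (23.3%) and 48 the MBD5/MBD6 list (80%). By library there were 27 and 45 in ACD15-FLAG, 14 and 2 in ACD21-FLAG, 1 and 0 in MBD6-RFP acd15 acd21, and 2 and 0 in MBD6-RFP wild type. Of the 60 copies 40 hold no CG, and the highest count was 3. Copies without a CG numbered 27 of the 45 in the ACD15 merged list and 5 of the 14 in the ACD21 merged list. The PRODH1 region had 0 copies by this search. How the authors treated reads that map to more than one place is not stated, and its part in the calls at repeated sequences was not tested.

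**Figure D4:**
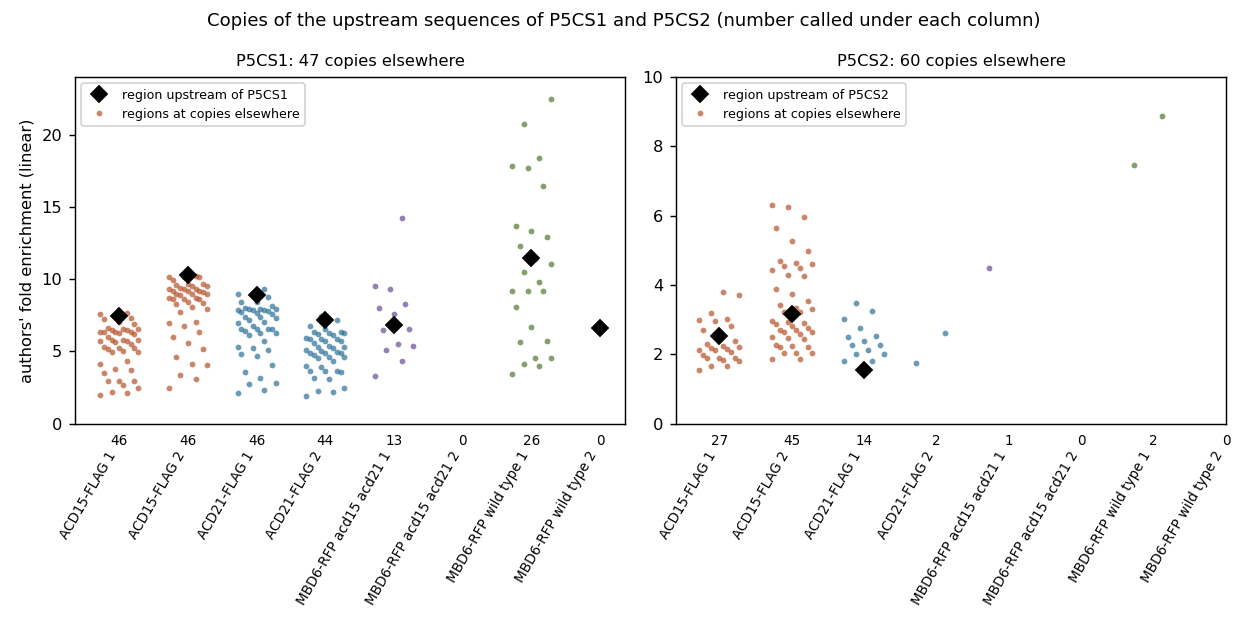
Fold enrichment given by the authors (y axis, linear) in 8 libraries (x axis) at the region upstream of P5CS1 or P5CS2 (black diamonds) and at regions on copies of its sequence elsewhere (points, coloured by group), with the number of copies called under each column. Copies of the P5CS1 sequence were called 44 to 46 times of 47 in the FLAG libraries, and copies of the P5CS2 sequence 2 to 45 times of 60.

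Likeness to P5CS1 over the 4 FLAG libraries was measured as the Euclidean distance between log2 fold enrichments, over genes with a symbol and a promoter region in all 4 lists. The 5 nearest were COL4, a B-box zinc finger gene (distance 0.0240), CXE18, a carboxylesterase gene (0.0906), RIE1, a RING finger gene (0.103), and PRP2, a proline-rich protein gene, and XCT, a regulator of the circadian clock (0.127 each). PRP2 and XCT are divergent neighbours that share 1 region, so they give 1 value. The regions of COL4 and CXE18, the 2 nearest, each hold a copy of the P5CS1 sequence, centred 511 and 404 bp upstream, and those of RIE1, PRP2 and XCT do not. Among genes ranked above P5CS1 by score, 1 of 23, COL4, had a copy in its region, and among those ranked below, 27 of 1510.

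The wider pathway was followed through 16 genes of proline, arginine and glutamate metabolism, proline transport and regulation. Of these, 10 had a region in the ACD15 merged list (30.3% of all genes did), 8 in the ACD21 merged list (20.8%) and 10 in the MBD5/MBD6 list (37.6%). In both replicates, 7 had one in ACD15-FLAG (18.9%) and 3 in ACD21-FLAG (12.3%). The 3 were ARGAH2, an arginase gene, bZIP44, a transcription factor gene of the group that acts on PRODH genes, and MYB2, a factor of stress responses.

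At ARGAH2 the folds of the region with the highest score were 3.99 and 6.44 in ACD15-FLAG and 3.94 and 2.84 in ACD21-FLAG, with summits 1490 to 1509 bp upstream. At bZIP44 they were 4.51 and 7.96 in ACD15-FLAG and 4.20 and 2.85 in ACD21-FLAG, past the end of the gene. At MYB2 they were 3.64 and 6.25 in ACD15-FLAG and 4.14 and 2.82 in ACD21-FLAG, with summits 1786 to 1811 bp upstream. Each of these values was above the median of its list and below that of P5CS1 in the same library. ARGAH2 had weaker regions too, with a summit inside the gene in ACD15-FLAG (1.89 and 2.97) and in ACD21-FLAG replicate 1 (2.17). Another lay 735 bp upstream in ACD15-FLAG replicate 1 (2.29) and 745 bp upstream in ACD21-FLAG replicate 1 (2.64). OAT, which makes pyrroline-5-carboxylate from ornithine, had 2.55 and 4.18 in ACD15-FLAG and 2.35 in ACD21-FLAG replicate 1, past its 3′ end. PROT2, a proline transporter, had 2.02 and 3.39 in ACD15-FLAG and 2.26 in ACD21-FLAG replicate 1, with the summit in the neighbouring AT3G55735.

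ARGAH1, the second arginase gene, had 2.33 and 3.86 in ACD15-FLAG and no ACD21 region, and bZIP11 had 2.71 and 4.57 in ACD15-FLAG and 2.16 in ACD21-FLAG replicate 1. bZIP1, bZIP2 and GDH2, a glutamate dehydrogenase gene, had an ACD15 region touching the window in replicate 2 only, of 3.76, 2.22 and 3.13. The merged ACD15 region at GDH2 came from both replicates, and its replicate 1 part did not reach the window. In ACD21-FLAG replicate 1 bZIP1 had 2.40 and GDH2 2.19. Every summit at GDH2, in these lists and in MBD6-RFP, lay 2074 to 2113 bp upstream, outside the window, in a coding exon of the neighbouring AT5G07430. Only the ends of the GDH2 regions touched the window. No list had a region at ALDH12A1, which oxidises pyrroline-5-carboxylate in mitochondria, at PROT1, PROT3, BAC2 or GDH1, or at bZIP53. For MBD6-RFP, acd15 acd21 replicate 1 had a region at GDH2 (5.11), and wild type replicate 1 had regions at ARGAH2 (8.66), GDH2 (6.56) and MYB2 (5.02), while replicate 2 of either genotype had none. Of the 21 genes, P5CS1 was thus the one with an MBD6-RFP region in both wild-type replicates.

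**Figure D5:**
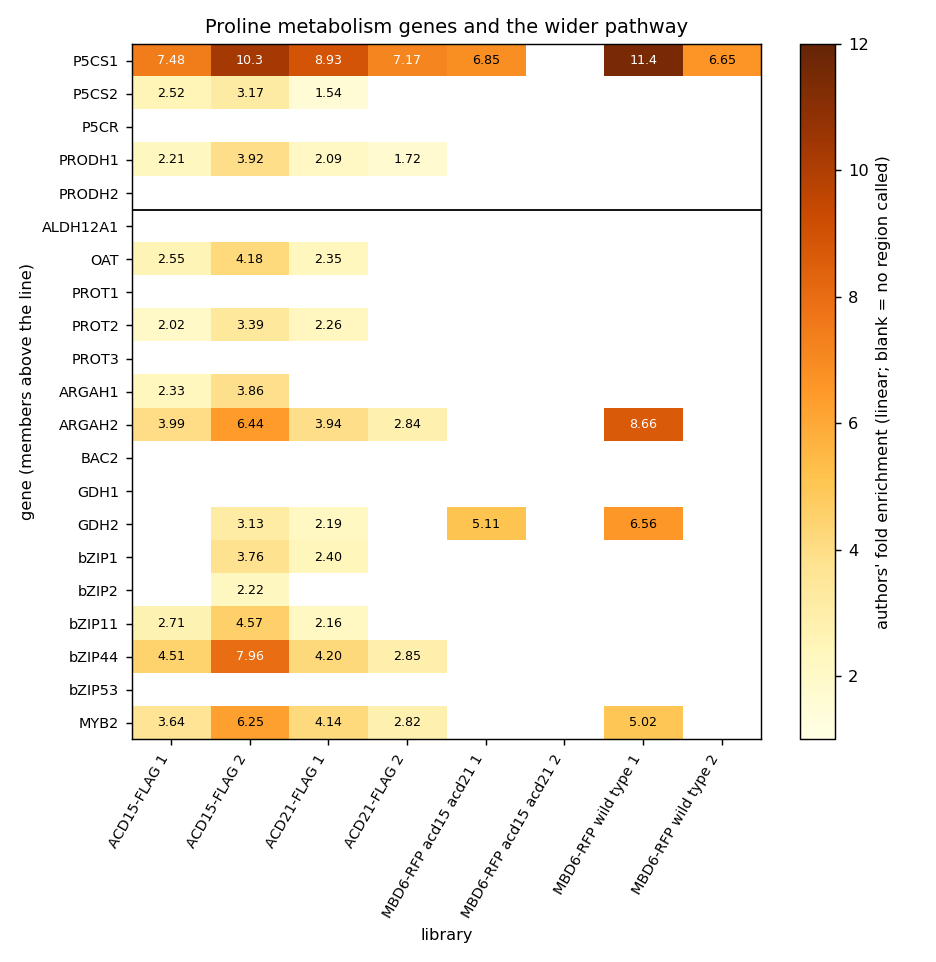
Fold enrichment given by the authors (colour and printed value, linear) for the region with the highest score in the window of each gene (rows, the 5 members above the line and 16 pathway genes below) in 8 libraries (columns); blank means that no region was called. P5CS1 has the highest value in every library in which it was called, and 6 pathway genes have none.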

How the data were processed

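Chromatin was immunoprecipitated from inflorescences of plants grown in 16 h of light and 8 h of dark, crosslinked in 1% formaldehyde, and sequenced after 15 PCR cycles, per the labels' protocols. The submitters' processing notes name MACS2 2.1.0 and deepTools 3.0.2, beside Trim Galore, Bowtie2, Picard and HOMER, on the TAIR10 build. The order and parameters of these steps are not stated there. The authors deposited peak lists for 8 single libraries, not for pooled replicates. Their columns are the score as the authors deposited it, which is the -log10 q value multiplied by 10, the fold enrichment as a deposited ratio, the deposited -log10 p and -log10 q values, and the summit. The 3 merged lists hold bounds only, per the file headers as unions of both replicates or of MBD5 and MBD6 broad peaks. By their names, the FLAG lists are without control peaks and the RFP lists without regions of unspecific enrichment. Depth is unknown from peak lists, so no precision from depth is given.

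Entries with the same bounds were counted as 1 region, which took the highest score among them. Starts of the library lists, counted from 0, were turned to count from 1. Gene bounds came from the RefSeq annotation of TAIR10.1. No region ended beyond its chromosome there. Regions were assigned by an overlap of at least 1 bp with the window, for members and for all 27444 genes alike, an assignment tested on simulated data. Percentiles were taken within each list. Copies were found with BLAST 2.17.0 (e-value at most 1e-10, matches of at least 100 bp, joined within 100 bp), and copies and hexamers were searched for after the sequences had been seen. Python 3.11.15, pandas 2.3.3, NumPy 2.4.6, pyfaidx 0.9.0.4 and matplotlib 3.10.9 were used.

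The members, gene lists and rules were chosen with earlier results of these data known. The genes named are the members, pathway genes with a region in both replicates or a merged list, genes overlapping a member's window or region, and the 5 genes nearest to P5CS1 in fold enrichment, besides COL3 and Tudor2, which stood next to P5CS1 in rank, those said to be singled out later and the pathway genes without a region. MBD6-RFP in acd15 acd21 and wild type was compared by exact permutation over libraries. The windows, overlap, threshold, ranking and replicates were varied.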

Additional observations from a re-analysis of the deposited data

How the results depend on the processing

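Counts of members with a region did not change under the summit rule or the 50% overlap rule. With the window of 1 kb upstream to the gene end, 2 members in place of 3 were left in 3 lists. These were ACD15-FLAG replicate 1, ACD21-FLAG replicate 1 and the ACD21 merged list. With a -log10 q of at least 5, 2 in place of 3 were left in ACD21-FLAG replicate 1. These changes stayed within the limit of 1.5 times. In ACD21-FLAG replicate 2, 1 member in place of 2 was left under the shorter window and 1 under the stricter -log10 q, both without PRODH1. Pathway genes with a region came to 2 in the ACD15 merged list, 2 in the ACD21 merged list and 3 in the MBD5/MBD6 list under the shorter window, which leaves out regions over 1 kb upstream and past the gene end. The share of all genes under the shorter window or the stricter -log10 q is not given. These counts are therefore not set beside the shares above, and nothing is read from them. For the MBD6-RFP comparison of acd15 acd21 with wild type, the paired fit with a replicate block gave -0.5 (exact sign flip, p = 1, smallest possible 0.5). This p-value too was fixed by the counts. Leaving out 1 replicate gave differences of -1 and 0. Nothing in the labels says that replicate numbers pair the libraries, and with 2 pairs this was not tested further. The mean P5CS1 fold with 1 replicate left out was 7.48 to 10.3 in ACD15-FLAG and 7.17 to 8.93 in ACD21-FLAG. In the 4 FLAG lists the percentile of the P5CS1 region stayed between 98.8 and 99.97 when regions were ranked by fold or entries were not joined. In MBD6-RFP its percentile by fold was 92.3 in acd15 acd21 replicate 1 (96.5 by score). In wild type it was 90.9 in replicate 1 (95.8 by score) and 81.9 in replicate 2 (21.1 by score). The CG density within 150 bp of the ACD15-FLAG replicate 2 summit was 5.32 per 100 bp for P5CS1 (3.57 over the whole region), 0 for P5CS2 (0.945) and 3.99 for PRODH1 (2.79). Matches of at least 200 bp left 31 copies of the P5CS1 sequence and 51 of the P5CS2 sequence, 30 and 40 of them in the ACD15 merged list. How far depth, which is unknown, set the absent calls was not tested.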

Other observations

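The region nearest to the PRODH1 window on the upstream side was called in all 4 FLAG lists, 1382 and 850 bp beyond it in the ACD15-FLAG replicates and 1489 and 1479 bp in the ACD21-FLAG replicates, with folds of 2.60 and 4.39 in ACD15-FLAG and 2.06 and 2.14 in ACD21-FLAG. MBD6-RFP had its nearest region 3846 and 25941 bp beyond the window in the acd15 acd21 replicates (folds of 9.49 and 1.87) and 3600 and 8429 bp beyond it in the wild-type replicates (folds of 21.5 and 4.22). The median CG density of whole regions was 4.09 and 7.06 per 100 bp in the MBD6-RFP acd15 acd21 lists and 3.35 and 6.84 in the wild-type lists, the shorter list being the denser in each genotype, while the P5CS1 region of wild type replicate 2 held 5.86.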
